A study of Mus musculus with 23 samples.

Results

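Sperm control of pH, potassium and cyclic AMP was followed through 10 genes, chosen by name for the known roles of their products in sperm: Slc9c1, Hvcn1, Adcy10, Prkaca, Prkar1a, Slc26a8, Kcnu1, Lrrc52, Atp1a4 and Atp2b4. All 10 were among the 28861 genes of the count table and among the 22873 genes that passed the filter on low counts. Testis RNA came from wild-type male mice of 3 inbred strains. NZO/HlLtJ, a strain prone to obesity and diabetes, gave 4 libraries on a diet with 44% fat and 4 on a diet with 10% fat. CAST/EiJ, a wild-derived strain, gave 4 and 3 libraries on these diets. C57BL/6J, the strain of the mouse reference genome, gave 4 and 4. The 44% fat diet was high in fat and sugar, the 10% fat diet was its control, and both contained fiber. Feeding began at 6 weeks of age and testes were taken at 16 weeks, so every animal had been on its diet over the same ages.

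A mature sperm makes almost no new protein, so the transporters and enzymes it carries are made from transcripts present in spermatids, the haploid cells of the testis. In the female tract, bicarbonate and a rise in internal pH activate the soluble adenylyl cyclase, which makes cyclic AMP, and cyclic AMP releases the catalytic subunit of protein kinase A from its regulatory subunit. Loss of potassium through a sperm-specific channel makes the membrane potential more negative, while sodium, proton, anion and calcium transporters set the ion gradients on which motility and capacitation depend.

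Of the 10 genes, 7 were called for NZO/HlLtJ over C57BL/6J, 9 for CAST/EiJ over C57BL/6J and 8 for NZO/HlLtJ over CAST/EiJ, where 59.1%, 66.8% and 72.1% of all genes tested were called, and no diet difference was called. Levels are given as counts per 1e+06 counts after TMM scaling (CPM). Slc9c1 and Lrrc52 were lower in both NZO/HlLtJ and CAST/EiJ than in C57BL/6J. Adcy10, Kcnu1 and Slc26a8 were highest in CAST/EiJ and lowest in NZO/HlLtJ. Relative to spermatid markers, themselves lower in NZO/HlLtJ, that strain was not lower than C57BL/6J for any of these 3. Log2 fold changes, their standard errors (SE) and adjusted p come from edgeR's quasi-likelihood test with Benjamini-Hochberg adjustment over all 22873 genes, and a gene was called at an adjusted p under 0.05. Because whole testis was measured, changed shares of cell types and changed RNA per cell cannot be told apart in any of these differences. The only genome build named is GRCm38, the C57BL/6J sequence. Whether sequence differences of the other strains changed their counts was not tested for any gene.

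**Figure D1:**
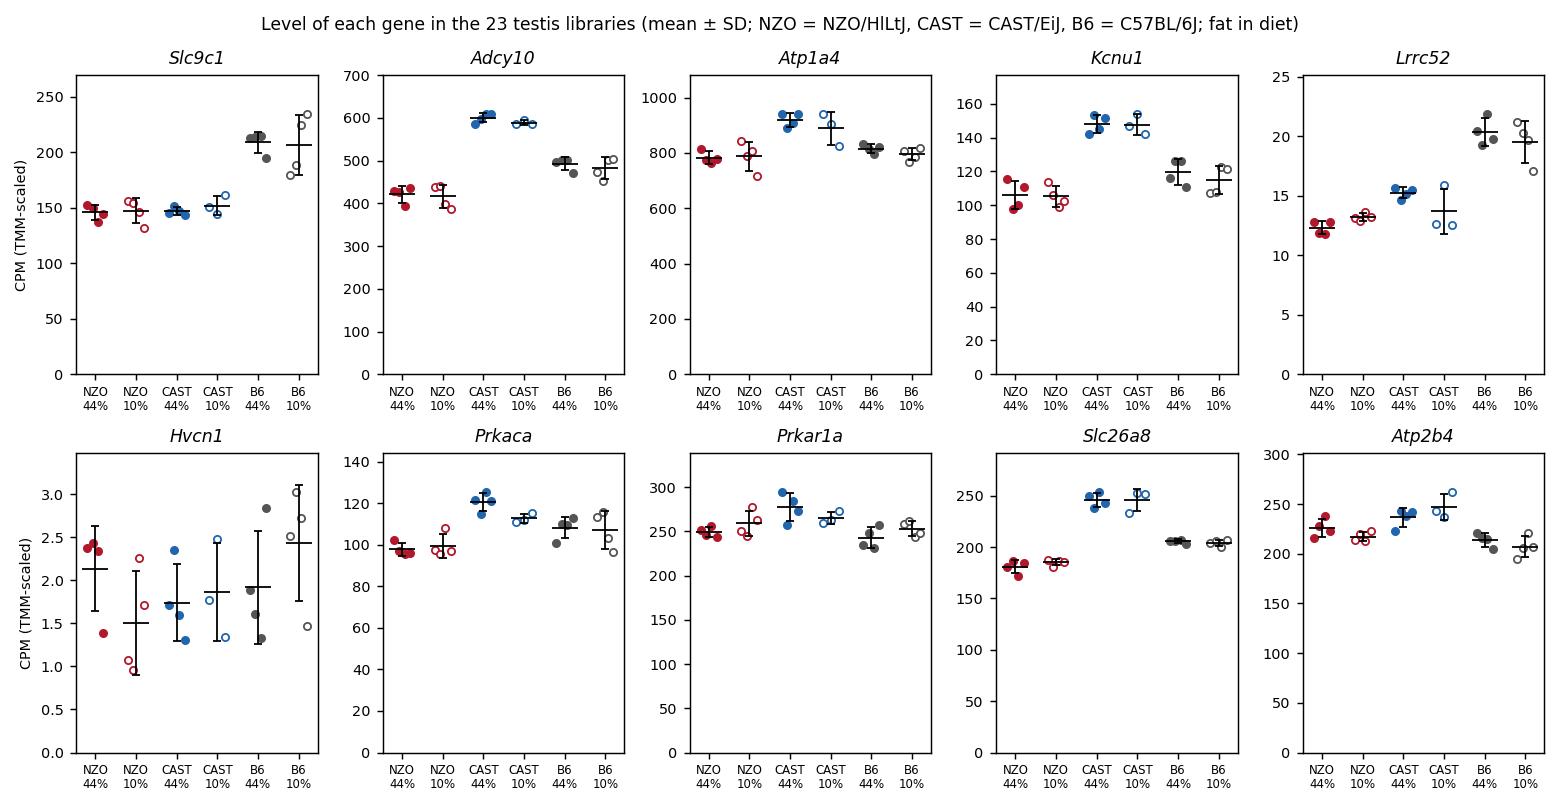
Level of each of the 10 genes in the 23 testis libraries, as TMM-scaled CPM on a linear axis that starts at 0, with each point a library and bars giving mean ± SD per group; NZO stands for NZO/HlLtJ, CAST for CAST/EiJ and B6 for C57BL/6J. Slc9c1 lay between 131 and 156 CPM in NZO/HlLtJ and between 179 and 235 CPM in C57BL/6J, while Hvcn1 stayed below 3.03 CPM in every library.

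Depth was lowest for Hvcn1. Totals ran from 21.9 to 78.7 M estimated counts per library (M, 1e+06), with a median of 35.1 M, and Slc9c1 alone had between 4601 and 10967 counts. Hvcn1 had between 32.0 and 129 counts per library, and its values rest on few reads. The 37 tested markers of round and elongating spermatids were each detected in every group of libraries. The epididymal gene Crisp1, which testis cells should lack, stood at 99.0 CPM in CAST/EiJ 44% fat replicate 2 and at 13.0 CPM in C57BL/6J 10% fat replicate 2, against at most 1.29 CPM elsewhere. These and 3 libraries that lay away from their strain on later principal components, which held 1.61% and 1.32% of the variance, are the 5 libraries that stood apart. Leaving them out kept all strain calls in CPM of the 10 genes except the one for Atp2b4, and all calls relative to spermatid markers except one for Prkar1a, each described with its value.

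Promoters of Slc9c1 and Lrrc52 are shown because both genes were low in the same strains. Those of Adcy10 and Slc26a8 are shown because both genes were high in the same strain. The windows run from 250 bases before to 50 after a start site, in the direction of transcription, and come from RefSeq in build GRCm38.p6, the C57BL/6J sequence. Of the 10 genes, 8 matched the table, with 14 windows, and Kcnu1 and Hvcn1 had no entry. Prkar1a, with only small strain differences, is shown for its motif. It has 6 windows, of which 2 hold the complete cAMP response element, the site of CREB and CREM factors, and 1 of these is shown. Capitals mark matches on either strand to the motifs searched. The first motif was the complete element, TGACGTCA. Its core, TGACG, is contained in it and was searched as well. GTTGCC is part of the X-box that RFX factors bind. The box written CCAAT reads ATTGG on the opposite strand. The windows are chr16:45535016-45535315, plus strand for Slc9c1, chr1:167466731-167467030, minus strand for Lrrc52, chr1:165484933-165485232, plus strand for Adcy10, chr17:28689938-28690237, minus strand for Slc26a8 and chr11:109650699-109650998, plus strand for Prkar1a.
Slc9c1: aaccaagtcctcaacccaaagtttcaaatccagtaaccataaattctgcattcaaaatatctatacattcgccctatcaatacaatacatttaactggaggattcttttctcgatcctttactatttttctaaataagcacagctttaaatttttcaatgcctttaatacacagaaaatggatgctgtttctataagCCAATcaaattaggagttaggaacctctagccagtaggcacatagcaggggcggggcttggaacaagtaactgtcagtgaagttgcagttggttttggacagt
Lrrc52: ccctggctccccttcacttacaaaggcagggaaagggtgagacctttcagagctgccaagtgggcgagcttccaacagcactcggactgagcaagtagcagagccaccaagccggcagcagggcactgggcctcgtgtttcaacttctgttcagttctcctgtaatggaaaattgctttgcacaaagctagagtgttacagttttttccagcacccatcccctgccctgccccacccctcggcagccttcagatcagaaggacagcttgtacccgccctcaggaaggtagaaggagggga
Adcy10: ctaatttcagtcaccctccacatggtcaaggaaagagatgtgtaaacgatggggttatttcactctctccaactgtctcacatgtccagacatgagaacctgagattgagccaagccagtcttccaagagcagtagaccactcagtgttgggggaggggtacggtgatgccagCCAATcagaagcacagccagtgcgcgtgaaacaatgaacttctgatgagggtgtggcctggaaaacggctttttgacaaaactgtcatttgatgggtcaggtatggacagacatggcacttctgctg
Slc26a8: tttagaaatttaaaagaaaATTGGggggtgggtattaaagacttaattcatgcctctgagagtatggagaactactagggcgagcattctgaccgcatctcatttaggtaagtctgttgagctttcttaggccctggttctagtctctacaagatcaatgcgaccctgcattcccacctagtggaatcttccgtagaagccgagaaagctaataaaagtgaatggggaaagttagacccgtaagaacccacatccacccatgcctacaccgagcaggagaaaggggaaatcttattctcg
Prkar1a: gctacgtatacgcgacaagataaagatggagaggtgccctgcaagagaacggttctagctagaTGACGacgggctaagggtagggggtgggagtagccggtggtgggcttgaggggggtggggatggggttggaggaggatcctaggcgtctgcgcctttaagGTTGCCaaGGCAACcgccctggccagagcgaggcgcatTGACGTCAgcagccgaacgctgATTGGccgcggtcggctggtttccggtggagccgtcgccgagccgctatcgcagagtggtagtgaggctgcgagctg

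The complete cAMP response element occurred in 1.79% of the 32851 promoter windows of the table, and among the 8 genes in Prkar1a alone, where it began at position -49 from the start site shown. TGACG occurred in 20.8% of all windows and in 3 of the 8 genes (Prkar1a, Prkaca and Atp2b4). GTTGCC occurred in 12.5% and in 2 of the 8 (Prkar1a and Prkaca), and CCAAT in 37.4% and in 5 of the 8. These percentages count windows, not genes. Counted by window, the complete element was in 2 of the 14 windows of these genes, TGACG in 5, GTTGCC in 3 and CCAAT in 5. In Slc9c1 the CCAAT began at position -53 and in Adcy10 at -77, while in Slc26a8 it lay on the opposite strand from position -231. The Lrrc52 and Atp1a4 windows held none of these letters. Genes with more windows had more chances of a match, and a match is a description of letters only.

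Within the testis the genes differed widely in abundance. Set per kilobase of exonic length, Atp1a4 was the most abundant in every library, with a mean of 226 CPM per kilobase. Prkar1a followed with 59.6, Adcy10 with 56.8, Slc26a8 with 44.1, Prkaca with 43.2, Slc9c1 with 41.6, Kcnu1 with 32.8, Atp2b4 with 18.3 and Lrrc52 with 13.8 CPM per kilobase. Hvcn1 was lowest at 0.543 CPM per kilobase, below every other gene in 23 of 23 libraries. Several neighbours in this order did not hold it throughout: Prkar1a exceeded Adcy10 in 13 of 23 libraries, Slc26a8 exceeded Prkaca in 14, Prkaca exceeded Slc9c1 in 16, Slc9c1 exceeded Kcnu1 in 17 and Atp2b4 exceeded Lrrc52 in 19. The order moved with strain. Per kilobase, Kcnu1 was above Slc9c1 in 6 of 7 CAST/EiJ libraries but below it in 8 of 8 of both NZO/HlLtJ and C57BL/6J, and Adcy10 was above Prkar1a in 6 of 7 CAST/EiJ libraries and below it in 8 of 8 from NZO/HlLtJ.

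Slc9c1 encodes the sperm-specific sodium-proton exchanger of the flagellum, which raises internal pH and is needed for motility in the mouse. The gene (ENSMUSG00000033210) lies on chromosome 16, at 45535309 to 45607001 of GRCm38 on the plus strand. In NZO/HlLtJ it stood at 152, 150, 137 and 145 CPM on 44% fat and at 156, 155, 147 and 131 CPM on 10% fat. CAST/EiJ libraries had 146, 151, 147 and 143 CPM on 44% fat and 150, 144 and 161 CPM on 10% fat. C57BL/6J libraries had 213, 214, 215 and 195 CPM on 44% fat and 179, 189, 224 and 235 CPM on 10% fat. Every NZO/HlLtJ and every CAST/EiJ library was below every C57BL/6J library, while the first 2 strains overlapped. The means were 147 ± 8.67 CPM in NZO/HlLtJ (SD, n = 8) and 149 ± 6.19 in CAST/EiJ (n = 7), against 208 ± 18.8 in C57BL/6J (n = 8). The log2 fold change was -0.50 (SE 0.05, adjusted p = 3.43e-10) for NZO/HlLtJ over C57BL/6J and -0.48 (SE 0.05, adjusted p = 1.30e-09) for CAST/EiJ over C57BL/6J, and both differences share the C57BL/6J libraries. Between NZO/HlLtJ and CAST/EiJ it was -0.03 (SE 0.05, adjusted p = 0.622).

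Hvcn1 encodes a voltage-gated proton channel that lets protons leave the cell. It lies on chromosome 5 at 122206804 to 122242297, plus strand, and 1574 of its exonic bases are shared with Tctn1 on the opposite strand. Whether counting used the strand is not stated, its counts were not whole in all 23 libraries, and Tctn1 averaged 61.7 CPM against 1.93 CPM for Hvcn1, so its level is uncertain. In NZO/HlLtJ it was 2.38, 2.43, 2.34 and 1.39 CPM on 44% fat and 1.07, 0.963, 2.26 and 1.71 CPM on 10% fat. CAST/EiJ had 1.71, 2.35, 1.60 and 1.31 CPM on 44% fat and 1.77, 2.47 and 1.35 CPM on 10% fat. C57BL/6J had 1.89, 1.61, 1.33 and 2.84 CPM on 44% fat and 2.51, 3.03, 2.72 and 1.47 CPM on 10% fat. All groups overlapped. The log2 fold changes of -0.27 (SE 0.19) for NZO/HlLtJ over C57BL/6J, -0.28 (SE 0.20) for CAST/EiJ over C57BL/6J and 0.00 (SE 0.20) for NZO/HlLtJ over CAST/EiJ did not pass the test. On 10% fat alone the first of these was -0.70 (SE 0.27, adjusted p = 0.0370). On 44% fat the means lay the other way, at 2.13 ± 0.50 CPM in NZO/HlLtJ and 1.92 ± 0.66 in C57BL/6J (SD, n = 4 each).

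Adcy10 encodes the soluble adenylyl cyclase, the bicarbonate sensor that makes cyclic AMP in sperm. It lies on chromosome 1 at 165485183 to 165576774, plus strand. NZO/HlLtJ libraries had 429, 426, 393 and 435 CPM on 44% fat and 438, 442, 399 and 386 CPM on 10% fat. CAST/EiJ libraries had 587, 597, 610.1 and 609.8 CPM on 44% fat and 587, 595 and 585 CPM on 10% fat. The C57BL/6J libraries had 497, 501, 502 and 472 CPM on 44% fat and 473, 452, 502 and 505 CPM on 10% fat. The 3 strains did not overlap at all, with NZO/HlLtJ lowest and CAST/EiJ highest. Log2 fold changes were -0.22 (SE 0.03, adjusted p = 8.82e-07) for NZO/HlLtJ over C57BL/6J, 0.29 (SE 0.03, adjusted p = 1.16e-08) for CAST/EiJ over C57BL/6J and -0.51 (SE 0.03, adjusted p = 5.51e-14) for NZO/HlLtJ over CAST/EiJ.

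Both subunits of protein kinase A showed small strain differences. Prkaca, the alpha catalytic subunit, lies on chromosome 8 at 83972993 to 83996443, plus strand, and has an alternative first exon used in sperm, which a count per gene cannot separate. It averaged 98.7 ± 4.40 CPM in NZO/HlLtJ (n = 8) and 117 ± 5.43 in CAST/EiJ (n = 7), against 108 ± 6.79 in C57BL/6J (n = 8). NZO/HlLtJ libraries lay between 95.6 and 108 CPM with a median of 97.0, CAST/EiJ libraries between 111 and 125 with a median of 115, and C57BL/6J libraries between 96.4 and 116 with a median of 110.

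Only NZO/HlLtJ and CAST/EiJ were without overlap for Prkaca. The log2 fold change was -0.13 (SE 0.04, adjusted p = 0.00458) for NZO/HlLtJ over C57BL/6J, 0.11 (SE 0.04, adjusted p = 0.0113) for CAST/EiJ over C57BL/6J and -0.24 (SE 0.04, adjusted p = 2.94e-06) for NZO/HlLtJ over CAST/EiJ. On 10% fat alone the first was -0.11 (SE 0.05, adjusted p = 0.103) and the CAST/EiJ difference 0.07 (SE 0.06, adjusted p = 0.301), which no longer passed. Prkar1a encodes the type I alpha regulatory subunit that holds the catalytic subunit inactive and lies on chromosome 11 at 109649405 to 109669656, plus strand. It averaged 254 ± 11.4 CPM in NZO/HlLtJ and 272 ± 13.6 in CAST/EiJ, against 248 ± 11.2 in C57BL/6J, and all pairs of strains overlapped. Its log2 fold change was 0.04 (SE 0.03, adjusted p = 0.367) for NZO/HlLtJ over C57BL/6J, 0.13 (SE 0.03, adjusted p = 0.00152) for CAST/EiJ over C57BL/6J and -0.09 (SE 0.03, adjusted p = 0.0155) for NZO/HlLtJ over CAST/EiJ. On 10% fat alone the last 2 were 0.07 (SE 0.05, adjusted p = 0.275) and -0.03 (SE 0.05, adjusted p = 0.590).

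Slc26a8 encodes an anion transporter of the sperm annulus that works with the chloride and bicarbonate channel CFTR, and mice without it have immotile sperm. It lies on chromosome 17 at 28637783 to 28690233, minus strand. In NZO/HlLtJ the values were 180, 187, 172 and 184 CPM on 44% fat and 187, 181, 187 and 185 CPM on 10% fat. CAST/EiJ had 249.8, 238, 254 and 243 CPM on 44% fat and 233, 253 and 252 CPM on 10% fat. C57BL/6J had 206, 206, 207 and 203 CPM on 44% fat and 204, 206, 201 and 207 CPM on 10% fat. No strain overlapped another, and strain accounted for 96.2% of its variance in log2 CPM, the highest share of the 10 genes. Log2 fold changes were -0.16 (SE 0.03, adjusted p = 4.80e-06) for NZO/HlLtJ over C57BL/6J, 0.26 (SE 0.03, adjusted p = 1.26e-09) for CAST/EiJ over C57BL/6J and -0.43 (SE 0.03, adjusted p = 3.29e-14) for NZO/HlLtJ over CAST/EiJ.

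Kcnu1 encodes the pore of the sperm potassium channel that opens at alkaline pH and depolarised potentials, and Lrrc52 encodes its auxiliary subunit, which shifts the opening of the channel towards physiological conditions. Kcnu1 lies on chromosome 8 at 25849623 to 25937939, plus strand. It had 116, 97.9, 99.9 and 111 CPM in NZO/HlLtJ on 44% fat and 114, 106, 98.9 and 103 CPM on 10% fat. CAST/EiJ libraries had 142, 153, 145 and 152 CPM on 44% fat and 147, 154 and 142 CPM on 10% fat. C57BL/6J libraries had 116, 126, 126 and 111 CPM on 44% fat and 107.5, 108, 122 and 121 CPM on 10% fat. CAST/EiJ was above every library of the other strains, and NZO/HlLtJ overlapped C57BL/6J. Log2 fold changes were -0.15 (SE 0.04, adjusted p = 0.00307) for NZO/HlLtJ over C57BL/6J, 0.34 (SE 0.04, adjusted p = 8.50e-08) for CAST/EiJ over C57BL/6J and -0.49 (SE 0.04, adjusted p = 5.40e-11) for NZO/HlLtJ over CAST/EiJ. The first of these was -0.12 (SE 0.06, adjusted p = 0.0943) on 10% fat alone.

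Lrrc52 lies on chromosome 1 at 167445669 to 167466780, minus strand. NZO/HlLtJ libraries had 12.8, 11.8, 11.8 and 12.8 CPM on 44% fat and 13.1, 12.9, 13.7 and 13.2 CPM on 10% fat. CAST/EiJ libraries had 15.7, 14.7, 15.2 and 15.5 CPM on 44% fat and 12.6, 15.9 and 12.6 CPM on 10% fat. C57BL/6J libraries had 20.5, 19.3, 21.9 and 19.8 CPM on 44% fat and 21.2, 20.3, 19.7 and 17.1 CPM on 10% fat. Both other strains lay wholly below C57BL/6J. The auxiliary subunit was thus lower where the pore was higher in CAST/EiJ, with log2 fold changes over C57BL/6J of -0.47 for Lrrc52 (SE 0.05, adjusted p = 1.38e-08) and 0.34 for Kcnu1. In NZO/HlLtJ the Lrrc52 change over C57BL/6J, -0.65 (SE 0.05, adjusted p = 1.90e-11), was the largest of the 10 genes in any strain comparison. NZO/HlLtJ over CAST/EiJ gave -0.18 (SE 0.06, adjusted p = 0.00512), which was -0.05 (SE 0.08, adjusted p = 0.629) on 10% fat alone.

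Ratios of partner transcripts within a library, chosen after their values were seen and so given with no test, put these pairs on 1 scale. The log2 ratio of Kcnu1 CPM to Lrrc52 CPM averaged 3.04 ± 0.10 in NZO/HlLtJ (SD, n = 8) and 3.34 ± 0.13 in CAST/EiJ (n = 7), against 2.55 ± 0.16 in C57BL/6J (n = 8). The C57BL/6J ratios ended at 2.82, below the lowest value of 2.85 in NZO/HlLtJ and 3.18 in CAST/EiJ. Cyclase over exchanger, Adcy10 to Slc9c1, gave 1.51 ± 0.04 in NZO/HlLtJ and 2.00 ± 0.08 in CAST/EiJ, against 1.24 ± 0.09 in C57BL/6J, with no overlap. Catalytic over regulatory subunit, Prkaca to Prkar1a, gave -1.36 ± 0.05 in NZO/HlLtJ and -1.21 ± 0.04 in CAST/EiJ, against -1.20 ± 0.08 in C57BL/6J, and 1 C57BL/6J library at -1.37 lay within the NZO/HlLtJ range.

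**Figure D2:**
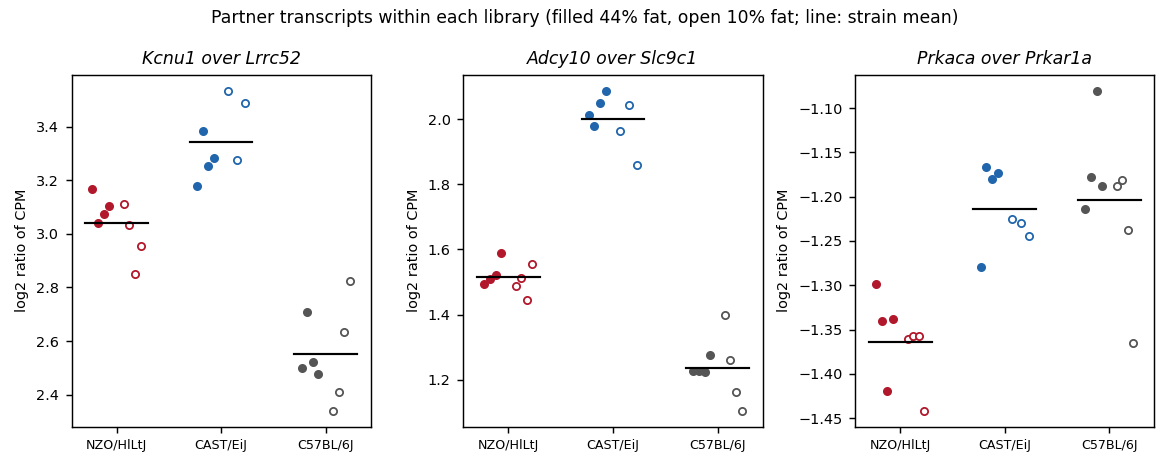
Log2 ratio of CPM between partner transcripts in each library, by strain; filled points are 44% fat libraries, open points 10% fat libraries, lines the strain means, and each panel has its own axis that does not start at 0. For Kcnu1 over Lrrc52 the means were 3.04 in NZO/HlLtJ, 3.34 in CAST/EiJ and 2.55 in C57BL/6J.

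Atp1a4 encodes the catalytic subunit of the sodium-potassium pump that is found in sperm, which holds sodium low and potassium high inside the cell. It lies on chromosome 1 at 172223513 to 172258414, minus strand, and its counts were not whole in 9 libraries. NZO/HlLtJ libraries lay between 718 and 841 CPM with a median of 783, CAST/EiJ libraries between 825 and 942 with a median of 909, and C57BL/6J libraries between 769 and 833 with a median of 810.1. Of the 7 CAST/EiJ libraries 6 were above every C57BL/6J library, whereas NZO/HlLtJ spanned the C57BL/6J range. The log2 fold change was -0.03 (SE 0.03, adjusted p = 0.352) for NZO/HlLtJ over C57BL/6J, 0.17 (SE 0.03, adjusted p = 4.44e-05) for CAST/EiJ over C57BL/6J and -0.20 (SE 0.03, adjusted p = 2.63e-06) for NZO/HlLtJ over CAST/EiJ.

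Atp2b4 encodes the plasma membrane calcium pump that clears calcium from the mouse sperm flagellum. It lies on chromosome 1 at 133699457 to 133801041, minus strand. NZO/HlLtJ libraries lay between 213 and 238 CPM with a median of 221, CAST/EiJ libraries between 223 and 262 with a median of 242, and C57BL/6J libraries between 195 and 221 with a median of 211. Every CAST/EiJ library was above every C57BL/6J library, and the log2 fold change was 0.20 (SE 0.03, adjusted p = 4.11e-06). NZO/HlLtJ over CAST/EiJ gave -0.13 (SE 0.03, adjusted p = 0.000991), and -0.07 (SE 0.04, adjusted p = 0.192) on 44% fat alone. NZO/HlLtJ over C57BL/6J gave 0.07 (SE 0.03, adjusted p = 0.0472). That call was lost with RLE scaling (0.04, SE 0.03, adjusted p = 0.229), with DESeq2 (0.04, SE 0.03, adjusted p = 0.218) and without the 5 libraries that stood apart (0.05, SE 0.04, adjusted p = 0.279). It was also lost in 16 of the 23 fits that left out 1 library each, with an adjusted p of up to 0.114.

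Counted together, NZO/HlLtJ over C57BL/6J had 1 of the 10 genes higher (Atp2b4), 6 lower and 3 not called. Relative to spermatid markers, themselves lower in NZO/HlLtJ, the lower genes Adcy10, Kcnu1, Prkaca and Slc26a8 had the opposite sign. Adcy10 and Kcnu1 were not called on that scale. Subtracting the lower marker mean raised all 10 genes alike, so a small decrease in CPM changes sign there. Of all genes tested, 59.1% were called in CPM, 30.4% higher and 28.7% lower. The median log2 fold change was -0.16 over the 10 genes and 0.01 over all genes. In CAST/EiJ over C57BL/6J, 7 were higher, 2 lower (Slc9c1 and Lrrc52) and 1 was not called (Hvcn1), where 66.8% of all genes were called, 32.7% higher and 34.1% lower, and the median was 0.15 against -0.0012 over all genes. In NZO/HlLtJ over CAST/EiJ, 0 were higher and 8 lower, where 72.1% of all genes were called, 39.6% higher and 32.5% lower, and the median was -0.19 against 0.06. Being called at all was thus common in the whole table. The 3 comparisons share libraries pairwise, so their counts are not independent.

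**Figure D3:**
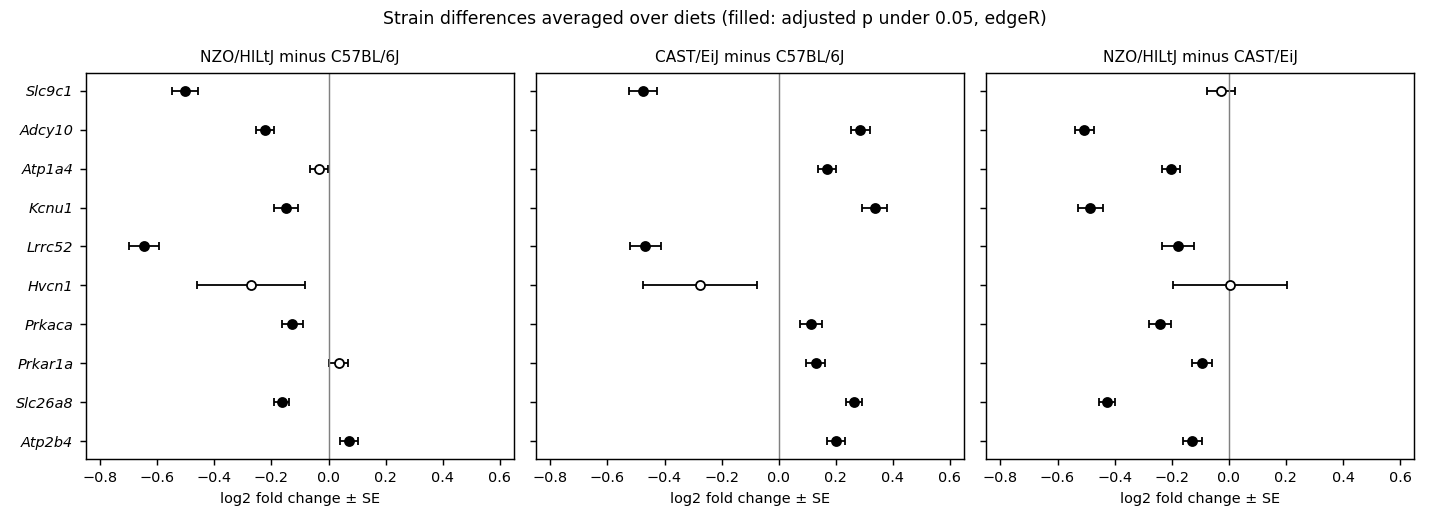
Log2 fold change ± SE of the 10 genes for NZO/HlLtJ over C57BL/6J, CAST/EiJ over C57BL/6J and NZO/HlLtJ over CAST/EiJ, averaged over diets; filled points have an edgeR adjusted p under 0.05. Lrrc52 at -0.65 was the largest change for NZO/HlLtJ over C57BL/6J, and for CAST/EiJ over C57BL/6J Slc9c1 at -0.48 and Kcnu1 at 0.34 lay on opposite sides of 0.

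Transcripts of spermatid markers differed by strain too. The mean log2 CPM of 37 markers of round and elongating spermatids was 7.79 ± 0.08 in NZO/HlLtJ (SD, n = 8) and 8.02 ± 0.04 in CAST/EiJ (n = 7), against 8.04 ± 0.04 in C57BL/6J (n = 8). In NZO/HlLtJ over C57BL/6J, 19 of 21 round spermatid markers and 14 of 16 elongating spermatid markers were lower and 0 were higher, with medians of -0.25 and -0.26. Among them were Gapdhs, a glycolytic enzyme of sperm, at 1268 ± 115 CPM in NZO/HlLtJ and 1610 ± 34.1 in CAST/EiJ, against 1661 ± 78.4 in C57BL/6J. Tnp1, whose protein replaces histones in elongating spermatids, stood at 1373 ± 108 CPM in NZO/HlLtJ and 1917 ± 79.5 in CAST/EiJ, against 1702 ± 118 in C57BL/6J. Summed levels of the round spermatid markers were 2664 to 2940 CPM in NZO/HlLtJ and 3085 to 3255 CPM in CAST/EiJ, against 3153 to 3439 CPM in C57BL/6J. Sums of the elongating spermatid markers were 14007 to 18198 CPM in NZO/HlLtJ and 18683 to 20687 CPM in CAST/EiJ, against 17271 to 19893 CPM in C57BL/6J. Leydig cell markers were higher in 10 and lower in 3 of 14 in NZO/HlLtJ over C57BL/6J, and summed to 1633 to 2256 CPM in NZO/HlLtJ and 839 to 1060 CPM in CAST/EiJ, against 1004 to 1296 CPM in C57BL/6J. Sertoli cell markers were higher in 13 and lower in 0 of 16, spermatogonial markers higher in 10 and lower in 1 of 13, and spermatocyte markers higher in 3 and lower in 7 of 16. The part of these other cell types in the differences of the 10 genes was not tested.

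Relative to the spermatid markers of the same library, the picture for NZO/HlLtJ was different. With an exact two-sided permutation test and Benjamini-Hochberg adjustment over 30 tests, Slc9c1 (log2 difference -0.25, adjusted p = 0.00187) and Lrrc52 (-0.39, adjusted p = 0.000424) were still lower in NZO/HlLtJ than in C57BL/6J. Higher than in C57BL/6J on this scale were Atp2b4 (0.32), Prkar1a (0.28) and Atp1a4 (0.21), each with an adjusted exact permutation p of 0.000424. Subtracting the lower marker mean of NZO/HlLtJ (7.79, against 8.04 in C57BL/6J) raised all 10 genes alike in this comparison. The log2 fold changes of CPM of these genes were 0.07, 0.04 and -0.03. A gene unchanged in CPM would thus also come out higher on this scale. Prkaca (0.12, exact permutation, adjusted p = 0.00622) and Slc26a8 (0.08, exact permutation, adjusted p = 0.0140) were also higher on this scale, the opposite of their direction in CPM. The Slc26a8 call was lost with the elongating spermatid markers alone (0.08, exact permutation, adjusted p = 0.106). With the 44% fat groups alone its difference was 0.11 (exact permutation, adjusted p = 0.0816). With the 10% fat groups alone none of the calls on this scale passed. With either diet alone, the few libraries per strain limit how small the exact permutation p can be, so a lost call there does not show a smaller difference. Adcy10 (0.03, exact permutation, adjusted p = 0.527), Kcnu1 (0.10, adjusted p = 0.0763) and Hvcn1 (-0.02, adjusted p = 0.938) did not pass, and Adcy10 and Kcnu1 too had the opposite sign of their CPM change.

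CAST/EiJ over C57BL/6J hardly moved on that scale, with 7 genes higher and 2 lower. In CPM, 66.8% of all genes tested were called for this pair. Relative to the markers there is no share of all genes to read such counts against. Whether these genes are called more often than others on that scale was thus not tested. Slc9c1 was at -0.46 (exact permutation, adjusted p = 0.000717), Lrrc52 at -0.44, Kcnu1 at 0.35, Adcy10 at 0.31 and Slc26a8 at 0.28, the last 4 each with an adjusted exact permutation p of 0.000424. Prkaca, Prkar1a and Atp2b4 were not called against the elongating spermatid markers alone, with adjusted exact permutation p of 0.186, 0.180 and 0.0520, and Atp2b4 was not called with the 44% fat groups alone (adjusted p = 0.0816). In NZO/HlLtJ over CAST/EiJ, Slc9c1 (0.21, exact permutation, adjusted p = 0.00204) and Prkar1a (0.13, adjusted p = 0.0160) were higher relative to the markers. The Prkar1a call was lost with the round spermatid markers alone (0.07, exact permutation, adjusted p = 0.163), with the 44% fat groups alone (0.11, adjusted p = 0.165) and without the 5 libraries that stood apart (0.08, adjusted p = 0.108). Adcy10 (-0.28, exact permutation, adjusted p = 0.000424), Kcnu1 (-0.26, adjusted p = 0.000424) and Slc26a8 (-0.20, adjusted p = 0.000999) were lower there, although Slc26a8 was at -0.11 (adjusted p = 0.0643) against the elongating spermatid markers alone. The smallest p these two-sided permutations can give is 0.000155 in each strain comparison.

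**Figure D4:**
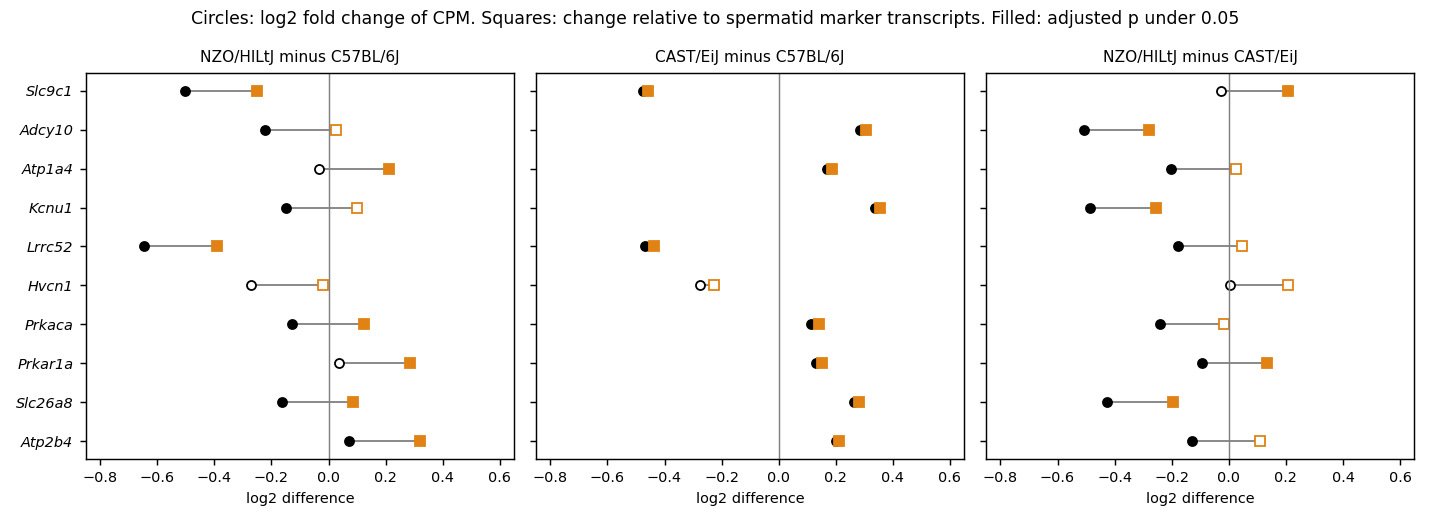
Strain differences of the 10 genes on the log2 scale: circles are edgeR log2 fold changes of CPM, squares the difference after subtracting the mean log2 CPM of spermatid markers in each library, and filled symbols have an adjusted p under 0.05. For NZO/HlLtJ over C57BL/6J the squares lie to the right of the circles, with Slc9c1 at -0.50 in CPM and -0.25 relative to the markers, while for CAST/EiJ over C57BL/6J circles and squares nearly coincide.

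No diet difference was called for any of these genes. Of the 10 genes 0 were called by edgeR for 44% over 10% fat in NZO/HlLtJ, in CAST/EiJ, in C57BL/6J or averaged over strains. Across all genes 0.00437%, 0%, 0.00874% and 0% were called in these comparisons. DESeq2 called 0 of the 10 as well, and 0 had an unadjusted p under 0.05. Averaged over strains, diet accounted for at most 1.6% of the variance in log2 CPM of any of the genes. The share of strain by diet was 18.3% for Hvcn1, 11.1% for Prkar1a, 7.6% for Atp2b4 and at most 4.0% for the other 7 genes. Strain accounted for 44.3% to 96.2% in all but Hvcn1, which had 7.8%. Apart from Hvcn1 and Lrrc52, the diet differences within a strain ran from -0.07 to 0.10 on the log2 scale, with SE up to 0.07.

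Of the 10 genes only Lrrc52 had diet groups that did not overlap within a strain. In NZO/HlLtJ its 44% fat libraries, at 11.8 to 12.8 CPM, all lay below its 10% fat libraries, at 12.9 to 13.7 CPM. This case was picked out of the diet comparisons of all 10 genes in each strain. How many of all genes tested separate so was not counted, so a separation by chance cannot be judged. The log2 difference in NZO/HlLtJ was -0.10 (SE 0.08, adjusted p = 0.825). In CAST/EiJ the difference was 0.16 (SE 0.08) and in C57BL/6J 0.05 (SE 0.07), each with an adjusted p of 1. The difference between the diet effects of NZO/HlLtJ and CAST/EiJ was -0.26 (SE 0.11), with an unadjusted p of 0.0259 in the fit across all genes and an adjusted p of 0.665. For Hvcn1 the diet difference was 0.49 (SE 0.27) in NZO/HlLtJ and -0.37 (SE 0.27) in C57BL/6J, and the difference between them was 0.86 (SE 0.38), with an unadjusted p of 0.0321 in the fit across all genes and an adjusted p of 1.00. In all, edgeR called 0 of the 10 genes for a difference of diet effects between any 2 strains, as it did for 0% of all genes, with 1, 0 and 1 genes under an unadjusted p of 0.05 for NZO/HlLtJ against C57BL/6J, CAST/EiJ against C57BL/6J and NZO/HlLtJ against CAST/EiJ. Over all 22873 genes the counts under that unadjusted p were 926, 919 and 1704. DESeq2 called 0 of the 10.

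**Figure D5:**
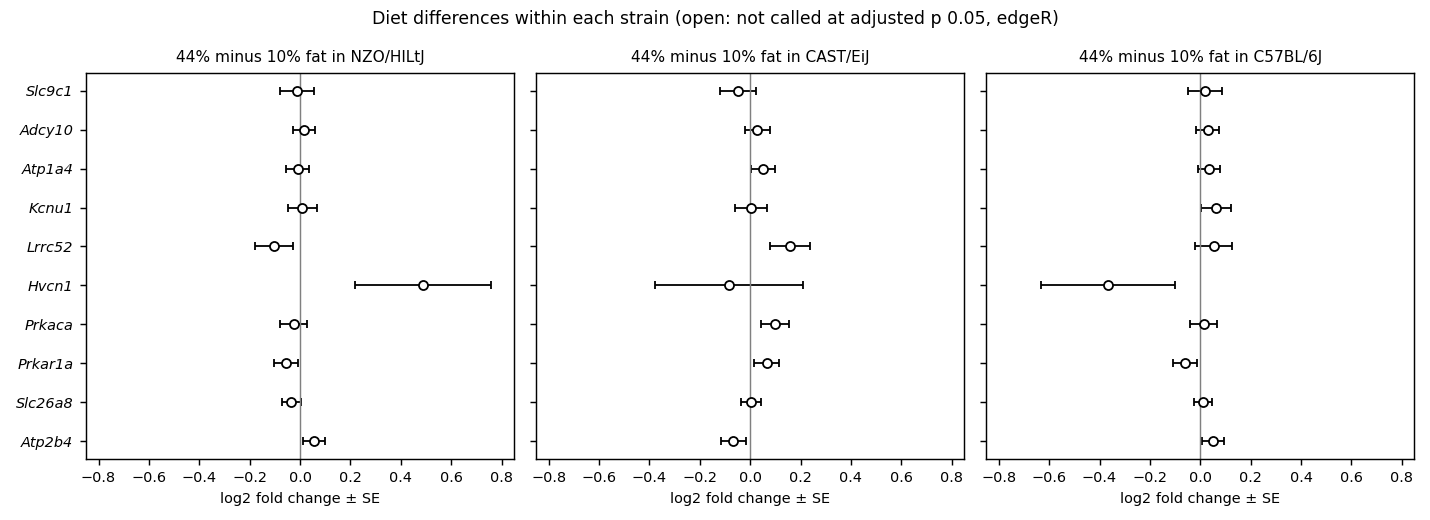
Log2 fold change ± SE of the 10 genes for 44% over 10% fat within NZO/HlLtJ, CAST/EiJ and C57BL/6J; open points did not pass an edgeR adjusted p of 0.05, and all points are open. Most genes lie within 0.1 of 0 with short bars, while Hvcn1 at 0.49 in NZO/HlLtJ and -0.37 in C57BL/6J has the widest bars.

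Other genes of the same pathways were called by strain at shares that can be read against the 59.1%, 66.8% and 72.1% of all genes called in the same 3 comparisons, and 0 were called for diet within any strain or averaged over strains. Of 39 other genes of cyclic AMP and protein kinase A signalling, 12 were higher and 17 lower in NZO/HlLtJ than in C57BL/6J (median -0.02), 16 and 8 in CAST/EiJ than in C57BL/6J (median 0.04), and 12 and 20 in NZO/HlLtJ than in CAST/EiJ (median -0.16). Fscb, a protein of the sperm fibrous sheath, averaged 263 ± 17.7 CPM in NZO/HlLtJ and 491 ± 13.1 in CAST/EiJ, against 434 ± 27.1 in C57BL/6J. Its log2 fold change was -0.72 (SE 0.04) for NZO/HlLtJ over C57BL/6J and -0.90 (SE 0.04) for NZO/HlLtJ over CAST/EiJ. The transmembrane adenylyl cyclase genes Adcy1 and Adcy3 stood well below Adcy10, and levels of the others on the list are not given here. Adcy1 was at 6.07 ± 1.04 CPM in NZO/HlLtJ and 1.65 ± 0.315 in CAST/EiJ, against 9.91 ± 0.759 in C57BL/6J. Adcy3 was at 5.75 ± 0.425 CPM in NZO/HlLtJ and 15.6 ± 0.832 in CAST/EiJ, against 5.13 ± 0.577 in C57BL/6J. Per kilobase, the highest of these 6 strain means was 2.50 CPM, for Adcy3 in CAST/EiJ. The phosphodiesterase gene Pde8b, whose enzyme breaks down cyclic AMP, was higher in both strains than in C57BL/6J, at 8.58 ± 0.796 CPM in NZO/HlLtJ and 6.66 ± 0.573 in CAST/EiJ, against 4.40 ± 0.475.

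Transport of protons, bicarbonate and anions included a large strain difference in Slc4a4. Of 25 tested genes of 26 listed, 9 were higher and 5 lower in NZO/HlLtJ than in C57BL/6J (median 0.06), 11 and 4 in CAST/EiJ than in C57BL/6J (median 0.13), and 8 and 10 in NZO/HlLtJ than in CAST/EiJ (median -0.03). Slc4a4, an electrogenic sodium-bicarbonate cotransporter, averaged 5.20 ± 0.823 CPM in NZO/HlLtJ and 40.4 ± 2.22 in CAST/EiJ, against 2.00 ± 0.509 in C57BL/6J. Its libraries lay between 4.31 and 6.21 CPM in NZO/HlLtJ and between 37.6 and 44.0 CPM in CAST/EiJ, against 1.42 to 3.08 CPM in C57BL/6J, with no overlap. Its log2 fold change was 4.36 (SE 0.10) for CAST/EiJ over C57BL/6J and 1.41 (SE 0.11) for NZO/HlLtJ over C57BL/6J. The log2 fold change for NZO/HlLtJ over CAST/EiJ was -2.95 (SE 0.09). Car2, a cytosolic carbonic anhydrase that interconverts carbon dioxide and bicarbonate, was lower in NZO/HlLtJ, at 52.2 ± 6.37 CPM in NZO/HlLtJ and 117 ± 5.61 in CAST/EiJ, against 103 ± 7.71 in C57BL/6J (log2 fold change -0.98, SE 0.05, for NZO/HlLtJ over C57BL/6J). Car3 varied by nearly its own mean within strains, at 0.968 ± 0.902 CPM in NZO/HlLtJ and 4.93 ± 4.45 in CAST/EiJ, against 1.94 ± 1.72 in C57BL/6J.

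For potassium and sodium transport, 17 of 21 listed genes were tested. Of these, 8 were higher and 5 lower in NZO/HlLtJ than in C57BL/6J (median 0.01), 6 and 7 in CAST/EiJ than in C57BL/6J (median -0.08), and 11 and 4 in NZO/HlLtJ than in CAST/EiJ (median 0.21). The leak potassium channel gene Kcnk3 was at 4.87 ± 0.766 CPM in NZO/HlLtJ and 1.44 ± 0.491 in CAST/EiJ, against 1.57 ± 0.359 in C57BL/6J. Small regulators of the sodium-potassium pump differed in opposite ways: Fxyd5 was at 7.07 ± 0.603 CPM in NZO/HlLtJ and 4.83 ± 0.470 in CAST/EiJ, against 2.90 ± 0.536 in C57BL/6J, and Fxyd2 at 2.72 ± 0.284 CPM in NZO/HlLtJ and 0.859 ± 0.185 in CAST/EiJ, against 5.59 ± 0.672 in C57BL/6J. Of 14 genes for calcium export and store pumps, 6 were higher and 3 lower in NZO/HlLtJ than in C57BL/6J (median 0.09), 7 and 5 in CAST/EiJ than in C57BL/6J (median 0.07), and 6 and 4 in NZO/HlLtJ than in CAST/EiJ (median 0.03). Atp2b1, a relative of Atp2b4 found in many tissues, was at 38.7 ± 4.65 CPM in NZO/HlLtJ and 30.8 ± 1.99 in CAST/EiJ, against 25.8 ± 2.82 in C57BL/6J. Atp2b2 was at 2.14 ± 0.159 CPM in NZO/HlLtJ and 6.17 ± 0.664 in CAST/EiJ, against 2.10 ± 0.344 in C57BL/6J.

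Genes with the most similar profile were sought over the 23 libraries among 10866 genes of at least 5 CPM, by Pearson's r of log2 CPM. Libraries of a strain cluster, so any gene with the same order of strains scores high, and r is given as a description only. For Slc26a8 these were Cep41 (0.986), Cog6 (0.985) and Catsperd (0.982), the last a subunit of the sperm calcium channel. Adcy10 was nearest to Adam3 (0.983), Tex2 (0.979) and Nt5c1b (0.979), Kcnu1 to Pdilt (0.982), Fam135b (0.974) and Cage1 (0.972), and Slc9c1 to Pde3b (0.972), Clpx (0.971) and Kif2a (0.966). Lrrc52 was nearest to Cnbd2 (0.962), Acot7 (0.962) and Ankrd53 (0.954), Prkaca to Tekt3 (0.958), Atp2b4 to Slc26a7 (0.938), Atp1a4 to Mipep (0.935) and Prkar1a to Eif6 (0.885). The highest r for Hvcn1 was 0.732, with Slc30a4.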

How the data were processed

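Polyadenylated RNA from 23 testis samples was sequenced as paired reads on an Illumina NovaSeq, per the labels' protocols. The authors deposited estimated counts per gene, of which 23.1% were not whole (tolerance 1e-06), and a table of variance-stabilised log2 values between 7.665 and 19.29. GRCm38 and DESeq2 are named per the submitters' processing notes, while the aligner, counting tool, annotation release and use of strand were not given in the sources used here. Counts were rounded to whole numbers, filtered with edgeR's filterByExpr (22873 genes kept) and fitted over 6 groups with edgeR 4.0.16 (TMM, quasi-likelihood test, Benjamini-Hochberg adjustment over all genes) in R 4.3.3. Strain effects average both diets, and log2 CPM used a prior count of 2. The procedure was tested on simulated data.

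Ratios to spermatid markers used exact two-sided permutation tests over libraries (numpy 2.4.6). Alternatives were DESeq2 1.42.0, RLE scaling, no filter, limma 3.58.1 on the log2 table the authors deposited, the run of ID numbers in the sample titles as a factor, fits of the compared strains only, either diet alone, each library left out and, for the ratios, round or elongating spermatid markers alone or a prior count of 0.5. Library totals ran from 21.9 to 78.7 M counts, and Hvcn1, with the fewest counts, has the lowest precision. Chi-square over degrees of freedom between counts of 33 replicate pairs was 3.47 to 18.9, so no library repeated another. The labels do not state that each library came from a separate animal, so p-values measure only the spread between these samples, which may be technical.

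The 10 genes, the lists and the tests were chosen with earlier results of these data known. From each list, up to 3 genes per strain comparison with the largest change, a call and a mean of at least 1 CPM could be named. Locations and exonic lengths come from GENCODE M21 (GRCm38), promoters from RefSeq (GRCm38.p6).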

Additional observations from a re-analysis of the deposited data

Results flagged for a closer look

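In 50 groups of 4 libraries, 1 library lay far from the other 3 in 4 cases, by the gap to its nearest neighbour relative to the whole range of the group (critical value 0.829). Chance flags about 1 in 20 groups. In C57BL/6J on 44% fat, replicate 4 had the lowest Slc9c1, 194.84 CPM, where the others had 212.5 to 214.89 CPM. The same library had the lowest Adcy10, 471.76 CPM, where the others had 497.36 to 501.77 CPM. In NZO/HlLtJ on 44% fat, replicate 4 had 1.3929 CPM of Hvcn1, where the others had 2.3391 to 2.4291 CPM. In NZO/HlLtJ on 10% fat, replicate 3 had 108.19 CPM of Prkaca, where the others had 95.597 to 97.565 CPM. The strain calls for Slc9c1, Adcy10 and Prkaca held when any single library was left out.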

How the results depend on the processing

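Leaving out each library in turn gave 6 to 7 of the 10 genes called for NZO/HlLtJ over C57BL/6J, 9 to 9 for CAST/EiJ over C57BL/6J, 8 to 8 for NZO/HlLtJ over CAST/EiJ and 0 for every diet and diet-by-strain comparison. The counts relative to spermatid markers were 7 to 8, 9 to 9 and 5 to 6, with no share of all genes to read them against. No direction of a called value reversed under any alternative run. With the 10% fat groups only, 0, 0 and 0 genes differed relative to spermatid markers, against 7, 9 and 5 with both diets; 3 or 4 libraries per strain limit the exact permutation p there, and the lowest adjusted value was 0.0779. Relative to the markers, Kcnu1 was called higher in NZO/HlLtJ than in C57BL/6J with the round spermatid markers alone (adjusted p = 0.0180), without C57BL/6J 10% fat replicate 4 (0.0468) and without NZO/HlLtJ 10% fat replicate 3 (0.00979), all by the exact permutation test. In NZO/HlLtJ over CAST/EiJ, the elongating spermatid markers alone gave calls for Atp1a4 (0.11, exact permutation, adjusted p = 0.00612) and Atp2b4 (0.19, adjusted p = 0.0329), and Atp2b4 was also called without CAST/EiJ 10% fat replicate 3 (0.0331) and without NZO/HlLtJ 10% fat replicate 3 (0.0456). Of 2300 fold changes with 1 library left out, 16 lost their call, all of Atp2b4 for NZO/HlLtJ over C57BL/6J, whose adjusted p was 0.229 with RLE scaling, 0.245 with limma on the log2 table, 0.218 with DESeq2 and 0.0531 with the compared strains only. Under the other alternatives, 735 of 750 fold changes kept their side of the threshold. Leaving out 5 libraries together, chosen after seeing the data, gave counts of 6, 9 and 8. No paired analysis was possible because the labels give no replicate numbers. Depth limits Hvcn1, whose counts were at most 129 per library.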

Other observations

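Values of 3 further genes of the cyclic AMP list, chosen after they were seen, stand here beside the medians of the round and elongating spermatid markers for NZO/HlLtJ over C57BL/6J, -0.25 and -0.26 on the log2 scale. Akap4, the main anchoring protein of protein kinase A in the fibrous sheath, averaged 1766 ± 137 CPM in NZO/HlLtJ and 2279 ± 46.8 in CAST/EiJ, against 2089 ± 103 in C57BL/6J. Its edgeR log2 fold change was -0.24 (SE 0.04) for NZO/HlLtJ over C57BL/6J and 0.13 (SE 0.04) for CAST/EiJ over C57BL/6J. Cabyr, a calcium-binding protein of the same sheath, averaged 297 ± 19.3 CPM in NZO/HlLtJ and 405 ± 18.6 in CAST/EiJ, against 397 ± 14.3 in C57BL/6J. Its log2 fold change was -0.42 (SE 0.04) for NZO/HlLtJ over C57BL/6J and 0.03 (SE 0.04, not called) for CAST/EiJ over C57BL/6J. Prkar2a, a type II regulatory subunit, averaged 186 ± 15.2 CPM in NZO/HlLtJ and 218 ± 9.72 in CAST/EiJ, against 228 ± 9.98 in C57BL/6J, with a log2 fold change of -0.29 (SE 0.04) for NZO/HlLtJ over C57BL/6J and -0.06 (SE 0.04, not called) for CAST/EiJ over C57BL/6J. The part of the spermatid markers in these differences was not tested.

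A broadly expressed counterpart of Prkaca and a partner of Slc26a8, also chosen after their values were seen, had higher CPM in NZO/HlLtJ than in C57BL/6J. Prkacb, the beta catalytic subunit, averaged 23.9 ± 1.31 CPM in NZO/HlLtJ and 18.2 ± 1.02 in CAST/EiJ, against 17.6 ± 1.47 in C57BL/6J, with a log2 fold change of 0.44 (SE 0.05) for NZO/HlLtJ over C57BL/6J. Cftr, the chloride and bicarbonate channel that works with Slc26a8, averaged 54.9 ± 3.50 CPM in NZO/HlLtJ and 61.5 ± 2.93 in CAST/EiJ, against 42.0 ± 3.83 in C57BL/6J, with log2 fold changes over C57BL/6J of 0.39 (SE 0.05) in NZO/HlLtJ and 0.56 (SE 0.05) in CAST/EiJ.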
